A study of Mus musculus with 8 samples.

Results

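The Ifit and Ifitm genes are a pair of interferon-induced antiviral families, and 7 of their mouse genes were followed here by name: Ifit1, Ifit2 and Ifit3, and Ifitm1, Ifitm2, Ifitm3 and Ifitm6. They account for 13 of the 45281 probes of a mouse Illumina BeadChip. Of these genes 6 of 7, with 12 of 13 probes, were detected on enough arrays to be tested, among 8252 tested genes in all. Detection means a p under 0.01 against the array's negative controls, and 4 of the 8 arrays were required whatever their group. The arrays hold sorted dendritic cells from C57BL/6 mice of genotype CCL17E/+, aged 2 to 5 months, whose EGFP reporter reads out activity of Ccl17, a chemokine gene. All animals had received 100 µg of LPS, the bacterial endotoxin, 15 h earlier, so no unstimulated sample is compared here. In both groups cells lacked NK1.1 and CD8alpha and carried CD11c and CD11b. From mesenteric and peripheral lymph nodes (LN) the EGFP-positive cells were kept, from spleen those without EGFP, and each group has 4 arrays. Organ and CCL17 status differ together and cannot be told apart. The number of mice behind each array is not given in the sources used here, so the p-values reflect only how far these arrays differ, which may be technical.

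IFIT proteins are built of tetratricopeptide repeats and lie in the cytoplasm. IFIT1 binds RNA whose cap lacks the methyl groups of host mRNA and blocks its translation, and IFIT2 and IFIT3 form complexes with it. IFITM proteins sit in the plasma membrane and in endosomes, where they hinder the fusion of enveloped viruses with the cell. Both families are induced by type I interferon through ISGF3, a transcription factor complex that binds interferon-stimulated response elements (ISRE), and LPS induces interferon through TLR4.

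In LN cells 5 of the 6 tested genes were lower than in splenic cells and 0 were higher. Among all tested genes 15.6% were called, 7.59% lower and 7.99% higher. A call is an adjusted p under 0.05 in limma's two-sided test with Benjamini-Hochberg adjustment over all tested genes. The median log2 fold of the 6 genes, LN minus spleen, was -1.55, against 0.03 over all tested genes. Ifitm6 was 5.91-fold, Ifit2 3.91-fold and Ifit3 3.85-fold lower. The place of Ifitm6, whose LN signal is near background, depends on the background step: its log2 fold was -2.56 as reported, -1.93 with the authors' processed values and -1.81 without background correction, where Ifit2 had -1.94 and -1.92 and Ifit3 -1.95 and -1.93. Ifitm3 was 2.23-fold and Ifitm1 1.83-fold lower in LN, and Ifitm2, at 1.68-fold, did not pass. In 5 of the 6 genes every LN array lay below every spleen array, as it did in 9.94% of all tested genes.

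**Figure D1:**
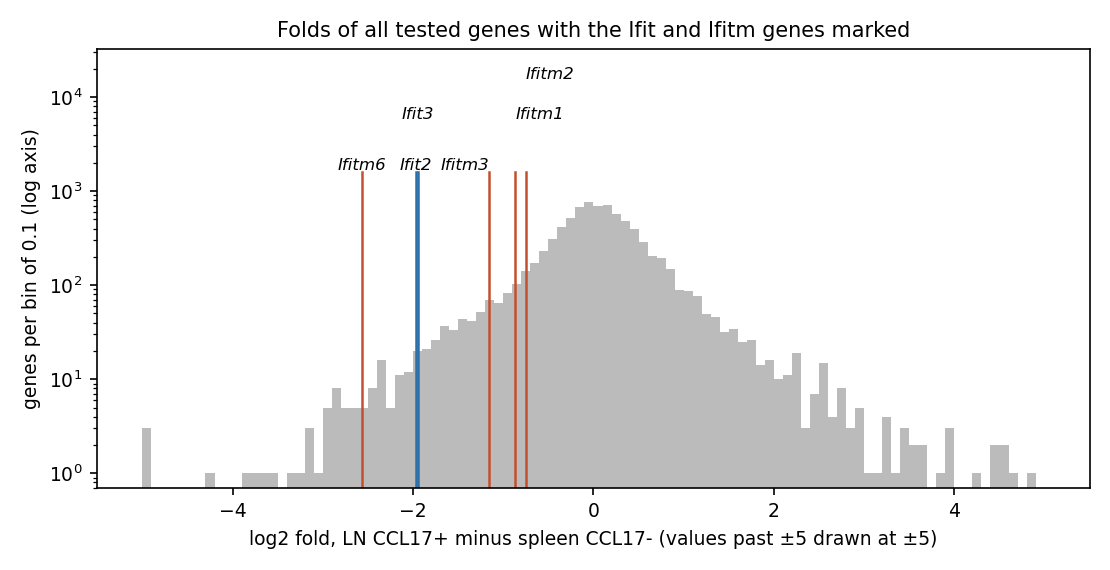
Histogram of the log2 fold, LN CCL17-positive minus spleen CCL17-negative, for all 8252 tested genes (x axis, bins of 0.1; y axis, genes per bin on a log axis). Blue lines mark Ifit2 and Ifit3 and red lines the 4 Ifitm genes. All 6 lie left of zero, from -2.56 for Ifitm6 to -0.75 for Ifitm2.

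The DNA before the start sites is shown for 4 of the genes because they differ in letters related to the ISRE. RefSeq windows (GRCm38.p6) of 250 bases before to 50 after each start were found for all 7 genes and searched on both strands for the core of the ISRE, GAAA followed by any 2 bases and GAAA. Capitals mark its matches, which read as the reverse complement in Ifit1 and Ifit3. The start base is counted as 0. The first line is chr19:34640639-34640888 (plus strand), the second chr19:34583279-34583528 (plus strand), the third chr7:140955962-140956211 (minus strand) and the fourth chr7:141016893-141017142 (minus strand), each ending just before the start.
Ifit1: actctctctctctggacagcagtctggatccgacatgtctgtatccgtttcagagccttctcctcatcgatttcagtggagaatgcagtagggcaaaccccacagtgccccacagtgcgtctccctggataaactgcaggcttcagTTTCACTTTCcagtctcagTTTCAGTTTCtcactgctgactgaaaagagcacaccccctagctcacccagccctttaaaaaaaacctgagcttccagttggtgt
Ifit3: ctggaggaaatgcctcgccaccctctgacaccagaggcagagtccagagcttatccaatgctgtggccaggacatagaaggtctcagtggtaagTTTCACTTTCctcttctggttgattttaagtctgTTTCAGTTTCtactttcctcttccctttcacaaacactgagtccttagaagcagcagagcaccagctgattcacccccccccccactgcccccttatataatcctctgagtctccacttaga
Ifitm2: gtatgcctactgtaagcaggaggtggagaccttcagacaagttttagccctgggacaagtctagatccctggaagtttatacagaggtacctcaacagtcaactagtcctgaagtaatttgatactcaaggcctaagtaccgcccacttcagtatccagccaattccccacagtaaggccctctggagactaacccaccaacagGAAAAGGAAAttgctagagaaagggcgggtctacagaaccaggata
Ifitm6: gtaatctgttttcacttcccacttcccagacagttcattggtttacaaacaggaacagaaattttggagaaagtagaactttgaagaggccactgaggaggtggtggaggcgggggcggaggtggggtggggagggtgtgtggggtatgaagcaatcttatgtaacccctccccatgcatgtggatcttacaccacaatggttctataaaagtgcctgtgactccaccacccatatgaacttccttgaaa
In Ifitm3 both matches lie just after the start, and the site is chr7:141010715-141010744 (minus strand), from the start base on.
Ifitm3: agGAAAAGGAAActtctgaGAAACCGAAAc

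These letters occurred in 4 of the 7 genes and in 3.44% of 32851 windows of the same length. Ifit1, Ifit3 and Ifitm3 each held 2 matches and Ifitm2 held 1, and 2 or more were found in 0.225% of all windows. In Ifit1 they began at positions -104 and -85, and in Ifit3 at -156 and -122. Neither of the windows of Ifit2, nor those of Ifitm1 and Ifitm6, held a match. Only these windows around the annotated starts were searched, so elements further away, or in other letters, would be missed. The letters TTCNNNGAA, the GAS element of interferon-responsive genes, occurred in 1 window each of Ifit2, Ifitm3 and Ifitm6 and in 8.3% of all windows. In Ifitm3 they cover bases 13 to 21 and overlap the second ISRE match at 19 to 28. Matches are a description of these letters only. The families lie in separate clusters. Among protein-coding genes in the same RefSeq table Ifit2 to Ifit1 follow each other on chromosome 19 with Ifit1bl1, Ifit3b and Ifit1bl2 between them, and Ifitm5, Ifitm2, Ifitm1, Ifitm3 and Ifitm6 follow each other on chromosome 7. The windows of Ifit1 and Ifit1bl2 overlap by 245 bases, so both genes share these Ifit1 matches.

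Mean intensity per array ran from 239 to 521, and 13743 to 14985 probes were detected, with both lowest values on spleen replicate 4. The number of arrays limits the precision. Spleen replicate 4 stood apart, with a mean correlation of 0.887 to its own group against 0.941 to 0.951 for the other spleen arrays and 0.969 to 0.975 for the LN arrays. Ccl17, the gene behind the sort, was 77.2-fold higher in LN (log2 fold 6.27 ± 0.28 SE, adjusted p 1.13e-06), which checks the labels and is no finding. Among 13 dendritic cell markers 10 were tested and 0 were called by limma (1 at an unadjusted p under 0.05), with 4 negative folds. H2-Ab1, Cd74, Zbtb46 and Irf4 were detected on all 8 arrays, whereas Itgax was detected on 3 arrays a group and Itgam on 1 LN array. Flt3 was detected on 2 LN arrays and 0 spleen arrays, and Cd209a on 0 LN arrays and 1 spleen array. Cd8a and Klrb1c, which encode the excluded CD8alpha and NK1.1, were detected on 0 arrays.

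The values below are log2 intensities after background correction and quantile normalization, given for replicates 1 to 4 in order. Ifit2, the IFIT protein linked to both antiviral defence and cell death, had 11.28, 11.38, 10.84 and 10.39 in LN and 13.32, 13.35, 12.87 and 12.24 in spleen on probe ILMN_2981167. The groups did not overlap, and within each organ the arrays of the first BeadChip, replicates 1 and 2, were above those of the second. The log2 fold was -1.97 ± 0.29 (SE, n = 4 a group, limma adjusted p 0.00121), with group means of 10.97 ± 0.45 (SD) in LN and 12.94 ± 0.52 (SD) in spleen. Differences between equally numbered arrays were narrow, at -2.03, -1.97, -2.03 and -1.84. On the second Ifit2 probe, ILMN_2981169, LN ran from 10.001 to 10.847 and spleen from 11.221 to 12.621, with a log2 fold of -1.65 ± 0.33 (adjusted p 0.00728 over 14726 probes). Both probes thus had separate groups and passed.

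Ifit3, which stabilises IFIT1 on its RNA targets in human cells, had 12.90, 12.79, 12.91 and 12.17 in LN and 14.70, 14.71, 14.98 and 14.15 in spleen on probe ILMN_2944666. Replicate 4 was the lowest array in each organ, and all LN arrays lay below all spleen arrays. The log2 fold was -1.94 ± 0.22 (SE, adjusted p 0.000251), with means of 12.69 ± 0.35 (SD, n = 4) and 14.63 ± 0.35 (SD, n = 4). On probe ILMN_1230458 the LN values were 9.49, 8.87, 8.07 and 8.04 and the spleen values 11.15, 10.93, 10.87 and 10.78. There the LN arrays spread over 1.45 and the spleen arrays over 0.36 on the log2 scale, and the fold was -2.32 ± 0.31 (adjusted p 0.000768 in the fit over probes). Ifit3b is a close copy of Ifit3: their start windows share an unbroken run of 169 identical bases. No probe was named for Ifit3b, so the level of Ifit3 alone is uncertain where a probe reads both.

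Ifit1, the cap sensor of the family, was not measurable. Its only probe, ILMN_2774340, was detected on 0 of the 8 arrays, with detection p from 0.0417 on spleen replicate 2 to 0.778 on LN replicate 1. Neither group was above background, so no fold is given. Whether this probe works could not be checked without its sequence, so the values do not show that Ifit1 RNA is absent. Ifit1bl1, an Ifit1-like gene of the same cluster, was detected on every array. Its log2 intensities were 7.0537, 7.4618, 7.7513 and 7.0005 in LN and 10.04, 9.86, 10.33 and 9.48 in spleen. LN lay wholly below spleen, by a log2 fold of -2.61 ± 0.25 (SE, adjusted p 9.27e-05), or 6.11-fold. Of the other family genes with a probe, Ifit1bl2 and Ifitm10 were detected on 0 arrays. Ifitm5, the bone-associated IFITM, was detected on 3 arrays a group, and its log2 fold was -0.55 ± 0.30 (adjusted p 0.279).

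**Figure D2:**
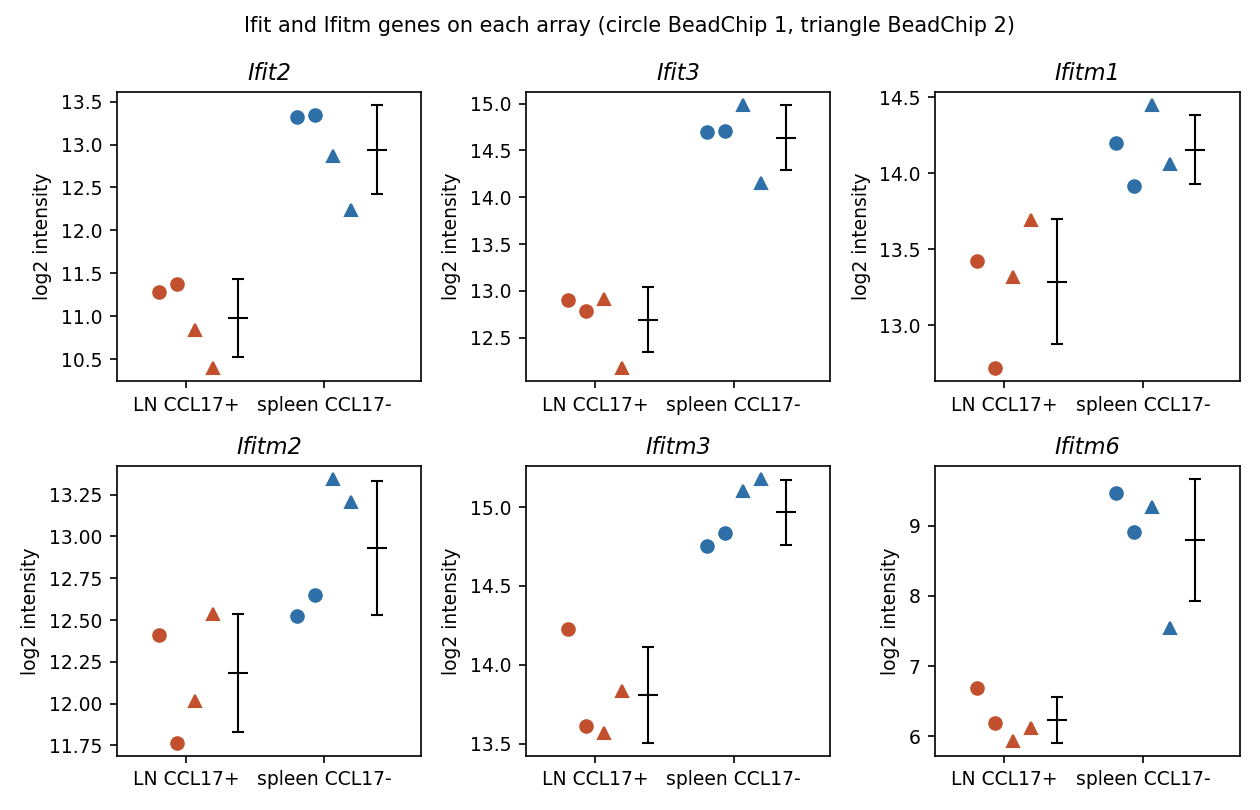
Log2 intensity (y axis, a scale of its own in each panel) of the probe that stands for each tested gene on the 4 LN CCL17-positive and 4 spleen CCL17-negative arrays, replicates 1 to 4 from left to right. Circles are the first and triangles the second BeadChip, and black bars are the mean ± SD. The groups overlap only for Ifitm2, where 1 LN array at 12.534 lies just above the lowest spleen array at 12.527.

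Ifitm3, the endosomal member best known for restricting influenza virus, had 14.23, 13.61, 13.57 and 13.83 in LN and 14.75, 14.83, 15.11 and 15.18 in spleen. The groups were separate, with LN replicate 1 the nearest to spleen. The log2 fold was -1.16 ± 0.18 (SE, adjusted p 0.00143), with means of 13.81 ± 0.30 (SD, n = 4) and 14.97 ± 0.21 (SD, n = 4). Equally numbered arrays differed by -0.53, -1.22, -1.54 and -1.34.

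Ifitm1, a member found mainly at the cell surface, was the best covered gene, with 5 probes that all passed the detection filter. On ILMN_1214071, which stands for the gene, LN had 13.42, 12.72, 13.32 and 13.69 and spleen 14.20, 13.91, 14.45 and 14.06. The groups were apart by less than the spread of the LN arrays. The log2 fold was -0.87 ± 0.21 (SE, adjusted p 0.0196), with means of 13.29 ± 0.41 (SD, n = 4) and 14.16 ± 0.23 (SD, n = 4). Over the 5 probes the log2 folds ran from -1.22 to -0.87. On ILMN_1217180 LN read 12.70 to 13.49 and spleen 13.83 to 14.36, with a fold of -0.98 ± 0.19 (adjusted p 0.00663). On ILMN_1245129 LN read 6.67 to 7.24 and spleen 7.78 to 8.76, with a fold of -1.22 ± 0.29 (adjusted p 0.0193). Both kept the groups apart, and the remaining probes passed the detection filter but not the test. On ILMN_2640765 it was -1.08 ± 0.36 (adjusted p 0.086), with spleen replicates 3 and 4 at 7.25 and 7.97 and the other spleen arrays at 6.39 and 6.29. On ILMN_2814484 it was -0.90 ± 0.41 (adjusted p 0.218). Spleen replicate 4 read 7.71 there, below all LN arrays (7.96 to 8.51), while the other spleen arrays read 9.48 to 9.85. Without spleen replicate 4 the fold on that probe was -1.37 ± 0.18 (adjusted p 0.000449).

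Ifitm2, like Ifitm3 an endosomal protein, had 12.41, 11.77, 12.01 and 12.53 in LN and 12.53, 12.65, 13.34 and 13.21 in spleen. The groups met at LN replicate 4 and spleen replicate 1, and the log2 fold of -0.75 ± 0.24 (SE) did not pass (adjusted p 0.061). With replicate number as a block the same fold passed (-0.75 ± 0.20, adjusted p 0.027), though the labels tie no number to mice. Ifitm2 passed under 3 of 20 other settings and not under 17. Its limma adjusted p was highest, at 0.258, with each array scaled by its median.

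Ifitm6, the neighbour of Ifitm3 in the chromosome 7 cluster, had 6.69, 6.18, 5.94 and 6.12 in LN and 9.47, 8.91, 9.27 and 7.54 in spleen. The groups were separate, and spleen replicate 4 lay well below the other spleen arrays. The log2 fold was -2.56 ± 0.39 (SE, adjusted p 0.00147), with means of 6.23 ± 0.32 (SD, n = 4) and 8.80 ± 0.87 (SD, n = 4). Without spleen replicate 4 it was -2.98 ± 0.23 (adjusted p 8.25e-06). Neutrophils carry CD11b, and the sort asked for both CD11b and CD11c. Some of their markers were detected on spleen arrays only, and they are named after their values were seen. S100a8 was detected on 0 LN arrays and on 3 spleen arrays. Its log2 intensities were 6.33, 7.71, 7.41 and 4.66 in spleen replicates 1 to 4 and 4.46 to 4.95 in LN. With 4 spleen arrays, of which replicate 4 stood apart from its group, the orders of S100a8 and Ifitm6 were not compared. S100a9 and Csf3r were also detected on 0 LN arrays and 3 spleen arrays. Of 11 neutrophil markers with a probe 7, among them Mpo, Elane and Camp, were detected on 0 arrays. Summed over the list, intensity ran from 300 to 310 in LN and from 332 to 619 in spleen. The part of neutrophils in the Ifitm6 result was not tested, and in bulk samples fewer cells of a type and less RNA per cell cannot be told apart.

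**Figure D3:**
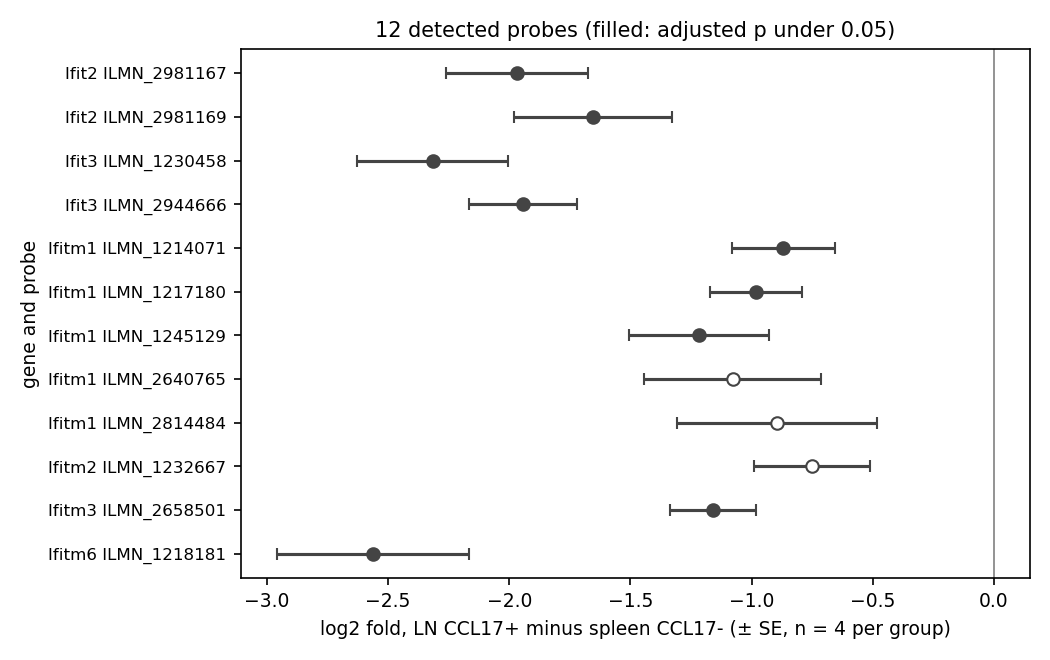
Log2 fold, LN CCL17-positive minus spleen CCL17-negative, with its SE (x axis) for the 12 probes of the Ifit and Ifitm genes that passed the detection filter (y axis), in the fit over 14726 probes. Filled points have an adjusted p under 0.05. All 12 folds are negative and 9 pass.

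At probe level 12 of 12 tested probes had a negative fold, 9 were called lower and 0 higher, and 10 had separate groups. Among all 14726 tested probes 6.18% were called lower, and 9.16% had every LN array below every spleen array. The sizes of the folds were also compared between genes. For each of the 15 pairs of tested genes the difference of their log2 folds was set against all 70 arrangements of the arrays, a test added after the values were seen. Unadjusted p was under 0.05 in 2 pairs, Ifit3 with Ifitm1 (difference -1.07) and Ifitm1 with Ifitm6 (difference 1.69). Both were at 0.0286, the smallest two-sided p the exact permutation test allows, and after adjustment over the 15 pairs 0 passed (adjusted p 0.161 to 0.943). With that floor at least 9 pairs would have to reach it for any to pass, and the test takes no account of replicate numbers, so it says little. Between equally numbered arrays 10 of the 15 differences had 1 sign in all 4 numbers, a description with no test. They include Ifit2 and Ifit3 each against Ifitm1, Ifitm2 and Ifitm3, with the Ifit gene lower in LN by more. The p for Ifit2 against Ifit3 was 0.943, with folds that differed by -0.02.

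All 6 genes had negative folds on each BeadChip. On the first BeadChip, with 2 arrays a group, the log2 folds were -1.9985 for Ifit2, -1.86 for Ifit3, -0.99 for Ifitm1, -0.50 for Ifitm2, -0.87 for Ifitm3 and -2.75 for Ifitm6. On the second they were -1.94 for Ifit2, -2.02 for Ifit3, -0.75 for Ifitm1, -0.9999 for Ifitm2, -1.44 for Ifitm3 and -2.38 for Ifitm6. There Ifitm1 (adjusted p 0.189) and Ifitm6 (adjusted p 0.0677) no longer passed. When arrays were matched on their medians only, not on all quantiles, the log2 fold of the median gene moved from 0.03 to 0.23. Under that scaling 2 of the 6 genes were called, Ifit3 and Ifitm6. Among all tested genes 315 were then called lower in LN and 624 higher, against 626 and 659 before. Ifit2 then had an adjusted p of 0.0537, Ifitm3 of 0.0744 and Ifitm1 of 0.23. Relative to the median of all genes the folds went from -1.997 to -1.961 for Ifit2 and staying at -1.19 for Ifitm3, while the SE went from 0.29 to 0.51 for Ifit2 and from 0.18 to 0.31 for Ifitm3. The Ifitm1 call was also lost without LN replicate 3 (adjusted p 0.0517) or spleen replicate 3 (adjusted p 0.0648), within 0.00594 to 0.23 over its alternatives.

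**Figure D4:**
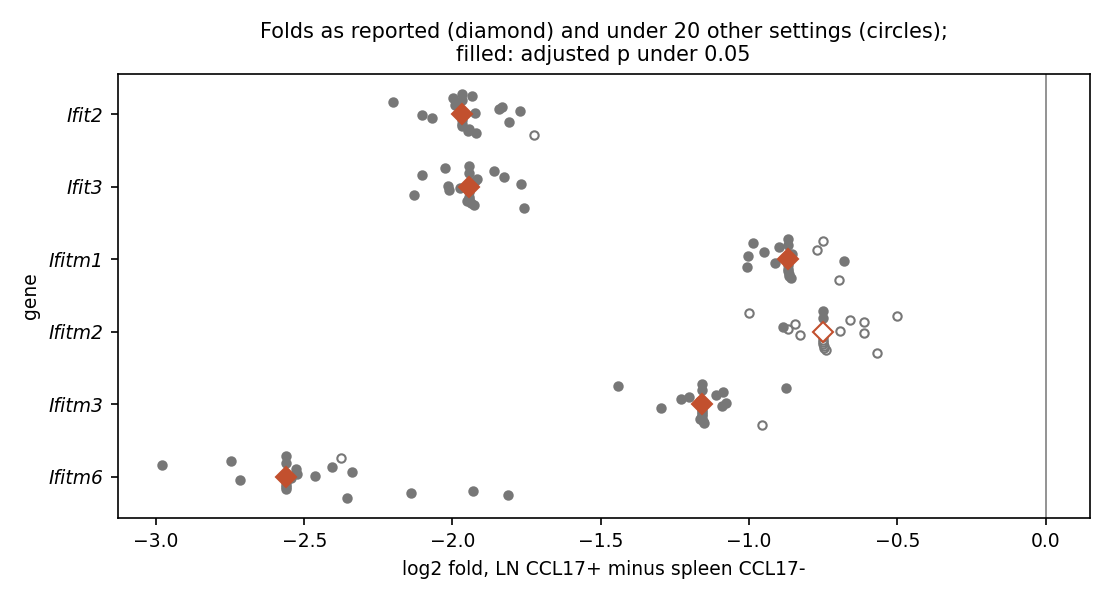
Log2 fold, LN CCL17-positive minus spleen CCL17-negative (x axis), of each tested gene (y axis) as reported (diamonds) and under 20 other settings (circles), which include leaving out each array. Filled symbols have an adjusted p under 0.05. No setting brings a fold to zero: the nearest is -0.50, for Ifitm2 on the first BeadChip.

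Likeness of array profiles was described by the root mean square difference between log2 profiles over the 8 arrays, each centred on its own mean. Profiles are not scaled and the arrays are shared by all genes, so the measure mostly restates how alike the folds are. Ifit2 and Ifit3 lay 0.289 apart, Ifitm1 and Ifitm2 0.238, and Ifitm1 and Ifitm3 0.316. Ifitm6 was nearest to Ifit2, at 0.495, and 0.941 to 1.15 from the other Ifitm genes. Outside the families, the 5 genes nearest to the mean of Ifit2 and Ifit3 were I830077J02Rik (0.169), Rtp4 (0.205), Gm12250 (0.217), Ddx58, which encodes the viral RNA sensor RIG-I (0.228), and Sh3bp2 (0.229). Nearest to Ifitm1 were Kit, Tle2 and Nop2 (0.123 to 0.185), to Ifitm3 Rfx1, Tmsb10 and Dusp28 (0.176 to 0.193), and to Ifitm6 Tagap1, Apof and Tagap (0.297 to 0.416).

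Other interferon-stimulated genes went the same way. Of 31 tested 24 were lower in LN and 0 higher, against 7.59% and 7.99% of all tested genes. Their median log2 fold was -1.08, with 30 negative folds. The largest were Isg20, an exonuclease that degrades RNA (-3.03 ± 0.20 SE, adjusted p 1.35e-05), Oas2 and Oas3, which make the messenger that activates RNase L, and the GTPase Mx2. Oas2 had a log2 fold of -2.45 ± 0.23 (adjusted p 8.35e-05), Mx2 of -2.30 ± 0.24 (adjusted p 0.000137) and Oas3 of -2.22 ± 0.40 (adjusted p 0.00355). The log2 folds of Ifit2 and Ifit3 lie between the list median and these, and those of Ifitm1 and Ifitm2 are smaller in size than the list median. With each array scaled by its median 12 of the 31 were lower, and within the second BeadChip 9. With replicate number as a block, or the BeadChip, 26 were lower and 1 higher, and without spleen replicate 4 27 and 1. Ifi27 is the gene with a positive fold among the 31 (0.63 ± 0.22, adjusted p 0.0823), named after its value was seen.

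Genes of the machinery that induces both families were also measured. Of 15 tested receptor, kinase, STAT and regulator genes 4 were lower in LN and 1 higher, against 7.59% and 7.99% of all tested genes. The median log2 fold of the 15 was -0.35. Irf7, the interferon-induced factor that amplifies interferon production, had -2.14 ± 0.33 (SE, adjusted p 0.00141), and Stat2, the ISGF3 subunit, -1.54 ± 0.18 (adjusted p 0.000277). Ifngr1, a receptor chain for interferon gamma, had -1.63 ± 0.20 (adjusted p 0.000389) and the inhibitor Socs3 -1.49 ± 0.22 (adjusted p 0.00121). Tyk2, a kinase of the type I receptor, was higher (0.68 ± 0.15, adjusted p 0.011). Irf9, the DNA-binding subunit of ISGF3, had -0.35 ± 0.30 (adjusted p 0.526), chosen after its value was seen. Without spleen replicate 4 8 of these genes were lower and 1 higher. With the mean of passing probes 5 were lower and 0 higher, and with median scaling or within the second BeadChip 3 and 0, so the higher call was lost there.

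Interferon transcripts themselves were mostly below detection at 15 h. Of 17 interferon genes with a probe 13, among them Ifnb1, were detected on 0 arrays, and 3 were tested with 0 called by limma, and 0 at an unadjusted p under 0.05. Genes that act on the same steps as these proteins were mostly not called. Of 7 tested genes for cap methylation, cap binding and the translation factors that IFIT proteins bind 0 were called, with a median log2 fold of -0.02. At limma's unadjusted p under 0.05 there was 1, Eif3c, a subunit of translation factor eIF3 (adjusted p 0.0867). Of 4 tested genes linked to IFITM processing 1 was called: Vcp, an ATPase that extracts proteins from membranes, was higher in LN (0.80 ± 0.13, adjusted p 0.002). Among all tested genes 15.6% were called either way.

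Markers of some other cells differed between the groups as well. Among all tested genes 7.59% were called lower in LN and 7.99% higher. Of the summed intensities below, those of erythroid and B cell markers were separate between the groups, and the others overlapped. Erythroid markers were lower in LN in 4 of 4 tested genes, with a summed intensity of 234 to 423 in LN and 5007 to 39614 in spleen. Natural killer markers were lower in 3 of 5 (3819 to 6208 against 4622 to 7305), although Ncr1, Eomes and Gzmb were detected on 0 arrays. Plasmacytoid dendritic cell markers were lower in 3 of 7 (3865 to 5274 against 4685 to 7375). One of them is Bst2, also interferon-stimulated. B cell markers were lower in 1 of 3 (333 to 571 against 617 to 910), with Ms4a1 and Pax5 detected on 0 arrays. Monocyte and macrophage markers had 1 lower, Fcgr4, and 1 higher, Lyz2, among 8 tested (2210 to 2968 against 2097 to 4214), with Ccr2 detected on 0 arrays. Of T cell markers 0 were tested, and of stromal and endothelial markers 1 of 10 was tested and 0 called by limma, nor at an unadjusted p under 0.05. The part of these cells in the Ifit and Ifitm results was not tested.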

How the data were processed

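Gene expression was measured on 8 BeadChip arrays, 4 a group, grouped by the sample titles. Per the labels' protocols, TRIzol RNA was labelled as biotinylated cRNA. Each probe has, per the file headers, a deposited bead intensity and a detection p-value from each array, before normalization. The submitters' processing notes list Partek; no scanner software or background step is named in the sources used here. The authors' processed values, deposited separately, are log2 values whose median is 6.28 on all arrays, and they correlated at 0.998989 or more with that array's log2 intensities.

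Intensities were background-corrected from the 936 negative controls that the detection p-values imply, then brought to common quantiles and to log2 after adding an offset of 16 (neqc, limma 3.58.1, R 4.3.3). Of 45281 probes 14726 had a detection p under 0.01 on at least 4 arrays. One blank line was left out. The probe's gene came from a platform table, in which 34885 probes had 1 symbol, 18 several and 10378 none listed. The brightest passing probe stood for a gene, and lmFit with eBayes and an intensity trend was fitted over all genes, and again over all probes. The fit was tested on simulated data with known folds. It called 38% of the genes given a log2 fold of 1 in size and 92% of those given 2. Of its calls 5.8% were false. Plots used Python 3.11.15, pandas 2.3.3 and matplotlib 3.10.9.

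Equally numbered arrays were treated as possible pairs: their deviations from the group means correlated at 0.31, 0.57, 0.27 and 0.54. Unequal numbers on the same BeadChip correlated as well or better in 3 of the 4 LN arrays (LN 1 with spleen 2 at 0.41, LN 2 with spleen 1 at 0.58, LN 3 with spleen 4 at 0.415), so the data do not separate pairing by number from sharing a BeadChip, and the labels tie no number to mice. The members, gene lists and tests were chosen with earlier results of these data known. Named genes were all 7 members, up to 4 called genes per direction of the interferon lists, up to 2 of the smaller lists, and the nearest profiles. Some exceptions are marked. Single markers of cell types, Ifnb1, uncalled family genes and Eif3c were also named outside these rules. The alternatives were another scaling, background, offset, filter, probe rule and model, the authors' values, leaving out each array, and BeadChip or replicate number as a block.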

Additional observations from a re-analysis of the deposited data

Results flagged for a closer look

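Among 24 sets of 4 arrays (12 probes in each group) 2 held an array far from the others, and chance alone would mark about 1 in 20. On Ifit3 probe ILMN_2944666 LN replicate 4 read 12.17 on the log2 scale, below the other LN arrays at 12.79 to 12.91. On Ifitm1 probe ILMN_2640765 LN replicate 2 read 5.52, below the other LN arrays at 5.99 to 6.06. Both arrays lay on the side away from spleen.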

How the results depend on the processing

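Over 20 other settings (19 for single probes) no fold of the 6 tested genes or their 12 probes changed direction. Ifit3 passed under all 20. With each array scaled by its median the log2 folds were -1.73 for Ifit2, -0.69 for Ifitm1 and -0.96 for Ifitm3, none passing. Called were 939 of all genes, 2 members, 4 member probes, 12 other interferon-stimulated genes and 3 signalling genes. Of all calls 66.5% were then higher in LN against 51.3% before, and the cause was not tested. Within the second BeadChip alone, with 4 arrays, Ifitm1 (-0.75) and Ifitm6 (-2.38) did not pass, and 361 of all genes, 3 members, 5 member probes, 9 other interferon-stimulated genes and 3 signalling genes were called. As a block, the BeadChip and the replicate number each left the fold of Ifitm2 at -0.75 and brought it past the threshold (adjusted p 0.0196 and 0.027); pairing by replicate block ended no call of a member gene. Leaving out 1 array gave 889 to 1988 called genes (1285 with all arrays; 1988 without spleen replicate 4), 4 to 6 members, 7 to 10 member probes, 17 to 28 other interferon-stimulated genes and 5 to 9 signalling genes. The log2 fold then ran from -1.0045 to -0.6793 for Ifitm1 and from -0.89 to -0.61 for Ifitm2, which passed without spleen replicate 1 (adjusted p 0.0433). Signal near background limits Ifit1, which has no value under any setting that asks for detection, and Ifitm6, whose log2 fold was -1.81 without background correction, its smallest size over the settings.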
